A study of Homo sapiens with 8 samples.

Results

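Extracellular matrix is degraded at the cell surface by matrix metalloproteinases (MMPs), which are held in check by the tissue inhibitors of metalloproteinases (TIMPs), and by the urokinase system, in which urokinase (PLAU) bound to its receptor (PLAUR) converts plasminogen to plasmin. MMP14 is a membrane-anchored protease that activates the gelatinase MMP2 with TIMP2 as its docking partner. These proteases and inhibitors are widely studied in tumor cell invasion, including in clear cell renal cell carcinoma (ccRCC). The 9 genes examined here were MMP1, MMP2, MMP7, MMP14, TIMP1, TIMP2, TIMP3, PLAU and PLAUR, out of 18693 gene symbols in the RNA-seq data. They were taken by symbol as a list of invasion genes, with earlier results of these data known. Of the 9 genes, 8 had a mean of at least 1 FPKM and were among the 10503 genes tested. FPKM expresses fragments relative to transcript length and to the total mapped in the library, so that levels can be compared between genes. All levels given are of RNA, and these libraries do not measure protein or protease activity.

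The data were 8 RNA-seq libraries from a pair of established human ccRCC cell lines, A498 and 786-O, in which the lincRNA SLINKY was depleted. Each line contributed 2 libraries after transfection of a non-targeting control (NTC) siRNA, 1 after siRNA1 against SLINKY and 1 after siRNA2. All siRNAs were used at 50 nM for 16 hr by lipofection. The sample descriptions call them pools, whereas the study's methods describe 2 independent siRNAs against SLINKY and a control pool. A498 was cultured in DMEM and 786-O in RPMI-1640, so that line and medium cannot be told apart, and each line stands for 1 tumor-derived line only. Nothing in the descriptions says that the libraries came from separate cultures, so p-values measure the spread between these libraries, which may be technical.

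SLINKY itself was lower in every siRNA library than in the NTC libraries of its line, by 89.3% with siRNA1 and 80.3% with siRNA2 in A498 and by 96.0% with siRNA1 and 58.2% with siRNA2 in 786-O, from NTC levels of 14.6 and 16.1 FPKM in A498 and 1.45 and 1.39 FPKM in 786-O. The estimated depth was 25100000 to 64600000 mapped reads per library. Of 9 renal tubule and ccRCC markers, 5 were at 1 FPKM or more in each line (PAX8, PAX2, KRT8, KRT18 and VIM), while CA9, LRP2, CUBN and AQP1 were under 1 FPKM. Endothelial markers summed to at most 0.302 FPKM. Fibroblast markers summed to 2.97 to 3.48 FPKM in A498, where COL1A1 was the 1 of 6 at 1 FPKM or more, and to 0.822 to 0.948 FPKM in 786-O. Of 6 leukocyte markers, CD68 was at 1 FPKM or more, and the list summed to 139 to 152 FPKM in A498 against 1.89 to 5.44 FPKM in 786-O, with PTPRC, CD14, ITGAM, CD3E and LYZ under 1 FPKM. Whether these markers have a part in the differences between the lines was not tested.

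Promoter sequence was looked up for the genes because, of these genes, the cell lines differed most in MMP7 and PLAU, in opposite directions. The RefSeq promoter table for GRCh38.p14 held 6 of the 9 genes (MMP7, MMP14, TIMP1, TIMP3, PLAU and PLAUR, with 2 starts for PLAU). Windows of 250 bases before and 50 after each start were searched on both strands for the AP-1 motif TGANTCA, the TATA motif TATAAA and the GC box GGGCGG. The AP-1 motif was found in MMP7, with its first base at position -67 relative to the start, and in PLAUR, at position -186, and it was in 7.71% of all 35116 promoters in the table. The 250 bases before the start are shown 5′ to 3′ on the strand of the gene for both, and for the upstream start of PLAU, which held none of the 3 motifs, with the AP-1 motif in capitals.
MMP7 (chr11:102530748-102530997, minus strand): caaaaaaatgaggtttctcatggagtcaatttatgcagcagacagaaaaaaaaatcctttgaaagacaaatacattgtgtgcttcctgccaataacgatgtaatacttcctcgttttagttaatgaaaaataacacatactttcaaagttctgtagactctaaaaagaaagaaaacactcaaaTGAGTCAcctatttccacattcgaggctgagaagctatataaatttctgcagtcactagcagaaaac
PLAUR (chr19:43670170-43670419, minus strand): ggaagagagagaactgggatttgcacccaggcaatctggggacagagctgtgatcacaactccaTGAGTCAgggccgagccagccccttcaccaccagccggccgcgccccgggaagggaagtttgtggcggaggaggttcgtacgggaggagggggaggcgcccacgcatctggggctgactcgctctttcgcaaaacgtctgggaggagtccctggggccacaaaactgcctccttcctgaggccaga
PLAU (chr10:73910360-73910609, plus strand): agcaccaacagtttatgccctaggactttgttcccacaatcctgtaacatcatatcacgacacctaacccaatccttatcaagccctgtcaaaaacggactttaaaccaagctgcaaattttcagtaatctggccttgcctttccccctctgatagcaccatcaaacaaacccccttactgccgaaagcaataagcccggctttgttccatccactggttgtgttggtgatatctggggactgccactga
MMP7 was the only one of the 6 genes with the TATA motif, at position -30, which 11.5% of all promoters held. The GC box, which 45.0% of all promoters held, occurred once in MMP14, 2 times in TIMP1, 5 times in TIMP3 and 3 times in the window of the downstream start of PLAU. The matches describe these windows only, and no protein binding was measured. Neither PLAU start was matched to the start of the measured PLAU entries, which are placed in hg19.

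The first question was how far the lines differ in these genes. A498 had the higher level of MMP7, TIMP2, TIMP1, MMP14 and PLAUR, and 786-O had the higher level of PLAU and MMP2. MMP7, PLAU and MMP2 differed most, while TIMP1 was the most abundant of the genes in both. In limma's test with Benjamini-Hochberg adjustment, 5 of the 8 tested genes were higher in A498, where 41% of all tested genes were higher, and 2 were higher in 786-O, where 42.8% were. Most genes differed between these lines, so the number of calls does not set the list apart. The groups of 4 libraries did not overlap for 7 of the 8 genes, against 77.3% of all tested genes. The median absolute log2 difference was 1.65 in the list and 0.50 over all tested genes. MMP2 and MMP7 passed the filter only through the line in which they were high, and without them the median of the other 6 genes was 0.90. The list was chosen with earlier results of these data known, so these medians describe it and do not test it. In cultured cells measured in bulk, a lower level can mean fewer expressing cells or less RNA per cell, which cannot be told apart here.

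**Figure D1:**
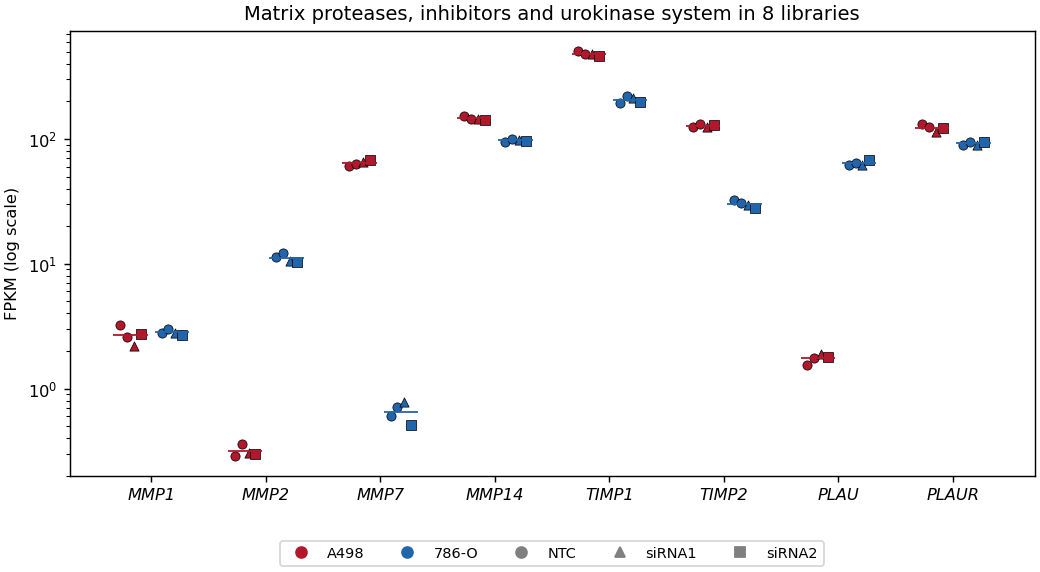
FPKM of 8 genes (logarithmic axis) in each of the 8 libraries, red for A498 and blue for 786-O, with circles for NTC, triangles for siRNA1, squares for siRNA2 and a short line at the mean of 4 libraries. MMP7 lies at 60.5 to 68.3 FPKM in A498 and at 0.510 to 0.775 FPKM in 786-O, PLAU and MMP2 show the opposite order, and MMP1 overlaps between the lines. TIMP3, listed at 0 in every library, is not drawn.

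MMP7 (matrilysin, NM_002423, minus strand, chr11:102391239-102401478 in hg19) is a small secreted metalloproteinase typical of epithelial cells. In A498 it was at 60.5 and 63.0 FPKM in the NTC libraries, 65.1 with siRNA1 and 68.3 with siRNA2. In 786-O it was at 0.600 and 0.708 FPKM in the NTC libraries, 0.775 with siRNA1 and 0.510 with siRNA2. All A498 libraries were high and all 786-O libraries low, with no overlap. The log2 difference was 6.44 ± 0.09 (SE, adjusted p = 5.41e-11, limma with Benjamini-Hochberg adjustment), or 86.6-fold on the scale of log2(FPKM + 0.1). It ranked 59 by absolute difference among the 10503 genes tested. In 786-O the values rested on 20, 42, 26 and 22 reads, as implied by the deposited 95% intervals, against 1574 to 2945 reads in A498.

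MMP2 (gelatinase A, plus strand, chr16:55513081-55540586 in hg19) degrades denatured collagen and basement membrane collagen. Its summed level in 786-O was 11.3 and 12.2 FPKM in the NTC libraries and 10.4 FPKM with either siRNA. In A498 it was 0.290 and 0.361 FPKM in the NTC libraries, 0.303 with siRNA1 and 0.301 with siRNA2. The 786-O libraries were high and the A498 libraries low without overlap, and the A498 values rested on 24 to 49 reads. The log2 difference of A498 against 786-O was -4.75 ± 0.08 (SE, adjusted p = 7.77e-11, limma), so that the level was 27.0-fold higher in 786-O. Most of the 786-O signal was in the entry NM_001127891, at 9.06 to 11.1 FPKM, and 0.188 to 1.30 FPKM was in NM_004530, which begins further upstream.

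MMP1 (interstitial collagenase, minus strand, chr11:102660641-102668966 in hg19) cleaves fibrillar collagen. It was at 3.25 and 2.60 FPKM in the A498 NTC libraries, 2.18 with siRNA1 and 2.75 with siRNA2. In 786-O it was at 2.78 and 2.99 FPKM in the NTC libraries, 2.79 with siRNA1 and 2.71 with siRNA2. The lines overlapped, the log2 difference was -0.08 (95% interval -0.29 to 0.14), and limma's adjusted p was 0.469. Its 2 RefSeq entries share the same interval, and the division of reads between them was uneven. In A498 with siRNA2 the entry NM_001145938 was at 0.000114 FPKM and NM_002421 at 2.75 FPKM, whereas in A498 with siRNA1 they were at 1.43 and 0.747 FPKM. The sum per gene was used throughout, and how far the division moves that sum was not tested.

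MMP14 (membrane type 1 metalloproteinase, NM_004995, plus strand, chr14:23305793-23316803 in hg19) was the most abundant metalloproteinase of the list in both lines. In A498 it was at 152 and 145 FPKM in the NTC libraries, 144 with siRNA1 and 143 with siRNA2. In 786-O it was at 94.7 and 100.1 FPKM in the NTC libraries, 97.8 with siRNA1 and 96.9 with siRNA2. The lines did not overlap and the difference was modest, 1.5-fold (log2 0.58 ± 0.04, SE, adjusted p = 3.35e-07, limma). The RNA of MMP2, which MMP14 activates, stood at 0.00191 to 0.00248 of the MMP14 RNA level in A498 and at 0.107 to 0.122 of it in 786-O.

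TIMP1 (NM_003254, plus strand, chrX:47441690-47446190 in hg19) is a secreted inhibitor of many MMPs but a weak one of MMP14. In A498 it was at 503 and 479 FPKM in the NTC libraries, 475 with siRNA1 and 462 with siRNA2, between rank 161 and 171 of all symbols. In 786-O it was at 196 and 220.4 FPKM in the NTC libraries, 212 with siRNA1 and 198 with siRNA2, between rank 394 and 432. Every A498 library was above every 786-O library. The difference was 2.32-fold (log2 1.22 ± 0.04, SE, adjusted p = 9.95e-09, limma). TIMP1 lies within the gene SYN1, whose entries were at most 0.0191 FPKM.

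TIMP2 (NM_003255, minus strand, chr17:76849059-76921472 in hg19) inhibits MMPs and takes part in MMP2 activation by MMP14. It was at 125 and 131 FPKM in the A498 NTC libraries, 125 with siRNA1 and 129 with siRNA2. In 786-O it was at 32.4 and 30.6 FPKM in the NTC libraries, 29.7 with siRNA1 and 28.2 with siRNA2. The A498 libraries were higher without overlap, 4.22-fold (log2 2.08 ± 0.04, SE, adjusted p = 3.45e-10, limma). The ratio of TIMP2 to MMP14 RNA was 0.821 to 0.906 in A498 and 0.291 to 0.342 in 786-O. The RNA of the inhibitor was thus close to that of the protease in A498 and well under it in 786-O. TIMP1 was 3.57 to 4.03 times TIMP2 in A498 and 6.03 to 7.20 times in 786-O. A short lncRNA entry inside TIMP2, ENSG00000267601.1, was at 13.7 to 28.1 FPKM in A498 and at most 4.79 FPKM in 786-O, and reads divided with it cannot be told from those of TIMP2.

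TIMP3 (NM_000362, plus strand, chr22:33196802-33259028 in hg19), the inhibitor that binds to the matrix, was listed at 0 in all 8 libraries. A count of 3 reads, the limit that a count of 0 allows, corresponded to 0.0106 to 0.0272 FPKM over its 4597 exon bases at the estimated depths, for counting error only. SYN3, the gene that overlaps it, was also at or near 0, with at most 0.0216 FPKM. Of 153 genes picked by name pattern, such as those of ribosome and proteasome subunits, 1 (PSMA8) was at 0 in every library. This count does not bear on whether the 0 of TIMP3 reflects absent RNA. Over all 18693 symbols, 1638 were at 0 in every library.

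PLAU (urokinase, plus strand, chr10:75670862-75677258 in hg19) is the serine protease that activates plasminogen at the cell surface. In 786-O its summed level was 62.2 and 64.5 FPKM in the NTC libraries, 61.8 with siRNA1 and 68.3 with siRNA2. In A498 it was 1.54 and 1.77 FPKM in the NTC libraries, 1.91 with siRNA1 and 1.79 with siRNA2. The 786-O libraries were high and the A498 libraries low without overlap. The log2 difference of A498 against 786-O was -5.12 ± 0.06 (SE, adjusted p = 2.25e-11, limma), and the level was 34.8-fold higher in 786-O. NM_002658 carried nearly all of the signal in both lines. An entry on the same stretch with no symbol here (NM_001001791) was at most 0.0465 FPKM in A498 and 0.772 to 0.951 FPKM in 786-O.

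PLAUR (urokinase receptor, minus strand, chr19:44150247-44174498 in hg19) anchors urokinase to the membrane. It was at 131 and 125 FPKM in the A498 NTC libraries, 113 with siRNA1 and 122 with siRNA2. In 786-O it was at 90.2 and 94.5 FPKM in the NTC libraries, 89.5 with siRNA1 and 95.3 with siRNA2. The lines did not overlap, and the difference was the smallest of those that passed the test, 1.32-fold (log2 0.41 ± 0.04, SE, adjusted p = 9.78e-06, limma). The RNAs of receptor and ligand therefore stood in very different proportions. The PLAU level was 0.0118 to 0.0168 of the PLAUR level in A498 and 0.683 to 0.717 of it in 786-O. PLAUR is listed as 3 overlapping entries, of which NM_002659 held the most in every library, at 83.9 to 101 FPKM in A498 and 56.4 to 70.6 FPKM in 786-O.

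By mean level over 4 libraries (± SD), the order in A498 was TIMP1 (480 ± 16.9 FPKM), MMP14 (146 ± 4.10), TIMP2 (128 ± 3.14), PLAUR (123 ± 7.19), MMP7 (64.2 ± 3.33), MMP1 (2.69 ± 0.444), PLAU (1.75 ± 0.155) and MMP2 (0.314 ± 0.0318). TIMP2 and PLAUR overlapped in A498. In 786-O the order was TIMP1 (207 ± 11.6 FPKM), MMP14 (97.4 ± 2.23), PLAUR (92.4 ± 2.96), PLAU (64.2 ± 3.01), TIMP2 (30.2 ± 1.78), MMP2 (11.1 ± 0.854), MMP1 (2.82 ± 0.119) and MMP7 (0.648 ± 0.117). MMP14 and PLAUR overlapped in 786-O. MMP7 in A498 and PLAU in 786-O thus held the place just under the receptor.

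The other genes of the plasminogen system were read next. Of 9 listed genes, 6 were tested, and 5 were higher in A498 and 1 in 786-O. Among all tested genes, 41% were higher in A498 and 42.8% in 786-O. Tissue plasminogen activator (PLAT), the other activator of plasminogen, differed in the direction opposite to PLAU, with 14.1 to 17.2 FPKM in A498 and 0.106 to 0.136 FPKM in 786-O (log2 6.22 ± 0.08, SE, adjusted p = 2.25e-11, limma). Each line therefore expressed mainly 1 of the 2 activators. The endocytic receptor LRP1, which clears complexes of protease and inhibitor, averaged 5.96 FPKM in A498 and 0.504 FPKM in 786-O (log2 3.33). The inhibitor SERPINE2 (protease nexin) averaged 97.4 and 18.8 FPKM (log2 2.37). Both passed limma's test, with adjusted p = 8.79e-10 for LRP1 and 3.34e-10 for SERPINE2. PLAT and LRP1 passed the filter only through A498, the line in which they were high. PLGRKT, a plasminogen receptor, was the gene higher in 786-O, at 40.4 against 36.0 FPKM (log2 -0.17, adjusted p = 0.0162, limma), although the groups overlapped. ANXA2 and S100A10, the subunits of a plasminogen-binding complex, were abundant in both lines, at 892 and 942 FPKM in A498 and 828 and 696 FPKM in 786-O. ANXA2 passed the test (log2 0.11, adjusted p = 0.0376, limma) although the groups overlapped. S100A10 passed it without overlap (log2 0.44, adjusted p = 1.67e-06, limma). Plasminogen itself (PLG), SERPINB2 and SERPINF2 averaged under 1 FPKM in both lines.

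**Figure D2:**
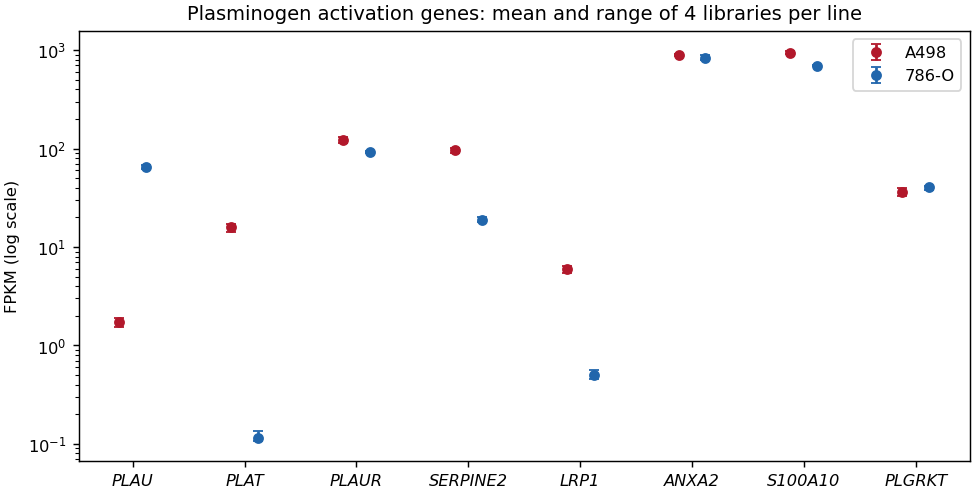
Mean FPKM (logarithmic axis) of PLAU, PLAUR and 6 other plasminogen system genes in A498 (red) and 786-O (blue), with bars from the lowest to the highest of 4 libraries. PLAU and PLAT lie in opposite order in the lines, with PLAT at 15.9 FPKM in A498 against 0.115 FPKM in 786-O. ANXA2 and S100A10 lie high in both lines, each with the higher mean in A498.

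Among 19 other metalloproteinases, 4 were tested, with 2 higher in each line, against 41% (A498) and 42.8% (786-O) of all tested genes. MMP15, a membrane-anchored relative of MMP14, averaged 10.1 FPKM in A498 and 1.57 FPKM in 786-O (log2 2.62, adjusted p = 2.72e-09, limma), and the collagenase MMP13 averaged 1.80 and 0.738 FPKM (log2 1.18). MMP24 was the highest of them, at 7.23 FPKM in A498 and 9.75 FPKM in 786-O (log2 -0.42), and the gelatinase MMP9 averaged 1.48 and 1.90 FPKM (log2 -0.33). MMP13 passed the filter only through A498. The remaining 15 other metalloproteinases averaged under 1 FPKM over the 8 libraries and were not tested. Among them MMP10 averaged 1.19 FPKM in A498 and 0.0246 FPKM in 786-O. Of 4 other inhibitors and activators, FURIN, the convertase that processes MMP14, was higher in 786-O (13.1 against 6.74 FPKM, log2 -0.94), as was BSG, an inducer of metalloproteinases (422 against 356 FPKM, log2 -0.24). RECK, a membrane-anchored MMP inhibitor, was higher in A498 (1.43 against 1.06 FPKM, log2 0.39), and TIMP4 was under 1 FPKM in both lines. TIMP1 was thus above every other inhibitor of metalloproteinases measured here in both lines.

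**Figure D3:**
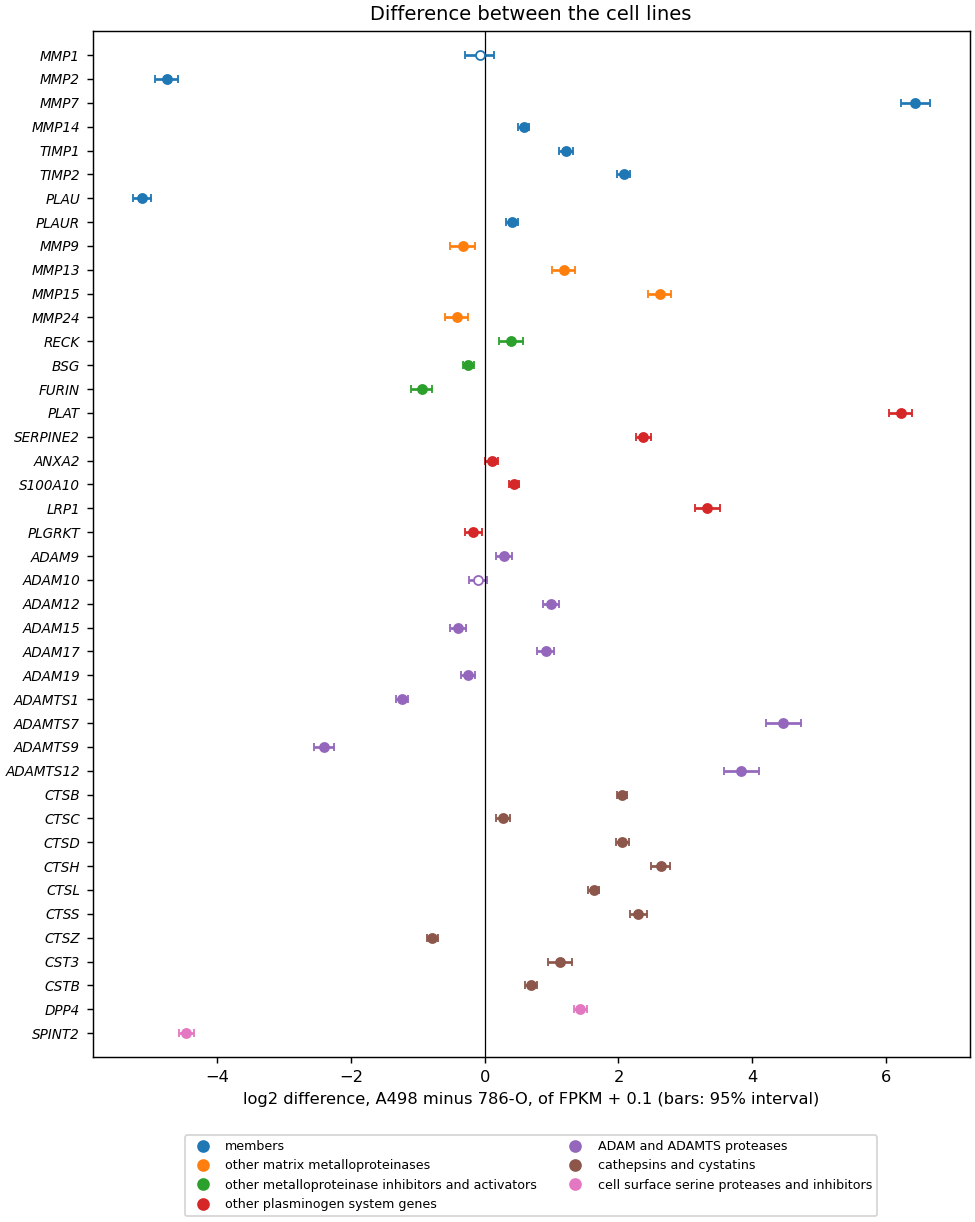
Log2 difference of A498 against 786-O (horizontal axis, positive where A498 is higher, with 95% intervals) for the 8 tested genes, drawn as members in the legend, and the tested genes of 6 other protease and inhibitor lists. Filled points passed limma's adjusted p of 0.05 and open points did not. On this scale of log2(FPKM + 0.1), MMP7 at 6.44 and PLAT at 6.22 are the highest, PLAU at -5.12 and MMP2 at -4.75 the lowest. The order depends on the 0.1 FPKM added, since PLAT averaged 0.115 FPKM and ADAMTS7 0.0160 FPKM in 786-O.

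The second question was whether SLINKY knockdown moved these genes. No member of the list passed the test for siRNA1, for siRNA2, for both together or for a difference of the knockdown effect between the lines, and none had an unadjusted p under 0.05 in any of these comparisons. Few genes passed at all. The share of all tested genes called was 0.343% for siRNA1, 0.0286% for siRNA2, 0% for both siRNAs together (0 genes by limma, with 1249 genes at an unadjusted p under 0.05) and 0.00952% for the interaction of knockdown and cell line. The median absolute log2 difference under knockdown was 0.06 in the list and 0.06 over all tested genes.

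Over both siRNAs and both lines, the estimates were small and their intervals included 0. The protease estimates were -0.15 for MMP1 (95% interval -0.37 to 0.06), -0.12 for MMP2 (-0.29 to 0.04), 0.03 for MMP7 (-0.20 to 0.27) and -0.03 for MMP14 (-0.10 to 0.05), on the log2 scale. The inhibitor estimates were -0.04 for TIMP1 (-0.14 to 0.06) and -0.06 for TIMP2 (-0.16 to 0.03). PLAU was at 0.10 (-0.04 to 0.23) and PLAUR at -0.06 (-0.16 to 0.04). The intervals bound the change most tightly for MMP14, TIMP2, TIMP1 and PLAUR, the more abundant genes. Limma's adjusted p ranged from 0.505 to 0.903 over the 8 genes.

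Taken one at a time, siRNA1 gave its largest estimate for MMP1 (log2 -0.22, 95% interval -0.48 to 0.04, adjusted p = 0.532, limma) and its smallest p for PLAUR (log2 -0.11, -0.22 to 0.00, adjusted p = 0.479, limma). With siRNA2 the estimates ran from -0.13 for MMP2 to 0.11 for PLAU, with adjusted p of 0.534 or more by limma. MMP7 was at 0.15 with siRNA1 and -0.08 with siRNA2. For the difference of the knockdown effect between the lines, the 95% intervals of the 8 genes lay between -0.62 and 0.65 on the log2 scale.

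Within a line, the 2 siRNA libraries fell outside the range of the 2 NTC libraries for 5 genes in A498, against 37.3% of all tested genes, and for 2 genes in 786-O, against 32.8%. In A498, MMP7 and PLAU were higher and MMP14, TIMP1 and PLAUR lower in both siRNA libraries. In 786-O, MMP2 and TIMP2 were lower in both, though the deposited intervals of MMP2 with siRNA2 are wide. No gene stood apart in both lines. The largest of these log2 differences were 0.16 for PLAU (A498, 95% interval -0.04 to 0.35) and -0.17 for MMP2 (786-O, -0.42 to 0.08). Neither passed limma's test (adjusted p = 0.774 and 0.983), in which the 2 siRNAs serve as replicates of the knockdown.

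For each siRNA library alone there is no replicate, and values are compared with the mean of the 2 NTC libraries at the fold threshold of the study, which is 0.32 on the log2 scale. With siRNA1 in A498, 1 of the 8 genes, MMP1, was past it (log2 -0.41), where 3.81% of all tested genes were. The NTC libraries of A498 differed by a log2 of -0.31 for MMP1, and without NTC 1 the ratio was -0.24 and under the threshold. No other gene of the list passed in any library, where the share of all tested genes past the threshold was 5.49% with siRNA2 in A498, 5.91% with siRNA1 in 786-O and 3.92% with siRNA2 in 786-O. Between the NTC libraries of a line the share was 4.67% in A498 and 4.63% in 786-O. The siRNA libraries are compared with a mean of 2 libraries and the controls with each other, so these shares are not on the same footing. With a single NTC library as control, 465 to 1142 genes were past the threshold for an siRNA library in A498 and 542 to 808 in 786-O, against 490 and 486 between the NTC libraries. MMP7 with siRNA2 in 786-O came nearest to the threshold (log2 -0.31), on 22 reads, and was past it without NTC 1 (log2 -0.41).

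**Figure D4:**
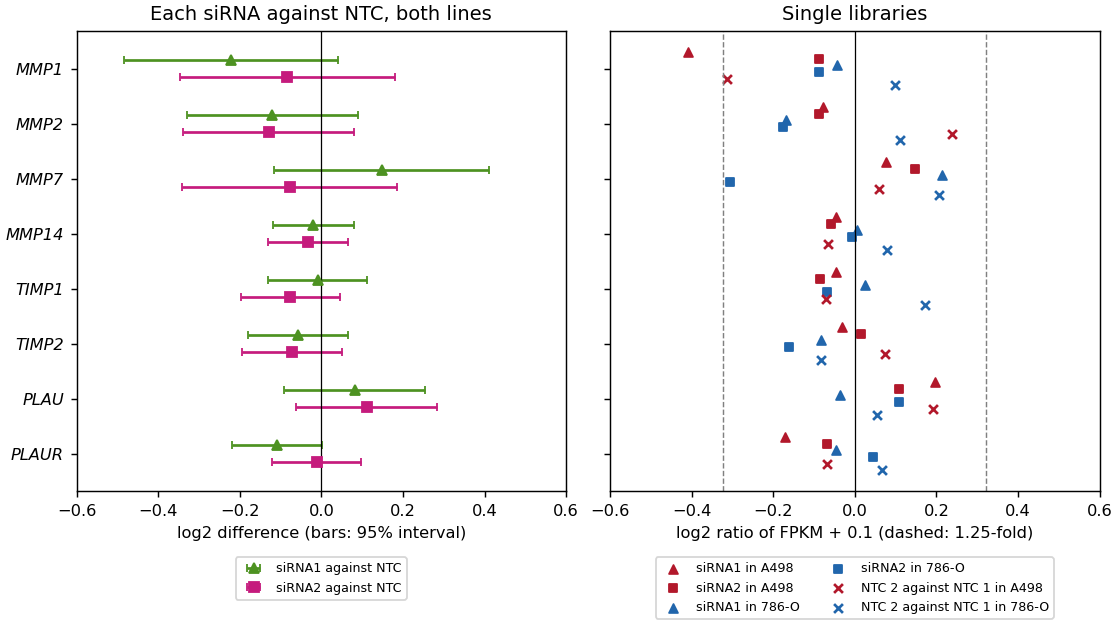
Left, log2 difference of each siRNA against NTC over both lines with 95% intervals for the 8 tested genes. Right, log2 ratio of each siRNA library to the mean of the NTC libraries of its line, with crosses for NTC 2 against NTC 1 and dashed lines at the fold threshold, 0.32 in either direction. Every interval on the left includes 0, and on the right only MMP1 with siRNA1 in A498 (-0.41) is past the threshold, beside a difference between the controls of -0.31.

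None of the tested genes of the 6 other lists passed limma's adjusted threshold in any knockdown comparison. With both siRNAs together, where 1249 of all 10503 tested genes had an unadjusted p under 0.05, 1 of 4 other metalloproteinases, 2 of 10 ADAM and ADAMTS proteases and 1 of 9 cathepsins and cystatins had one, and none of the 6 other plasminogen system genes did. The smallest p of these lists were for ADAM9, a membrane metalloproteinase, with siRNA2 (log2 0.45, 95% interval 0.31 to 0.60, adjusted p = 0.108, limma) and for ADAM17, the sheddase of TNF, with siRNA1 (log2 -0.32, -0.47 to -0.17, adjusted p = 0.118, limma).

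As a description over the 8 libraries, the gene most like each member by Pearson's r was RAB34 for MMP2, GSTM1 for MMP7, NECTIN2 for MMP14, CYSTM1 for TIMP1, POLE4 for TIMP2, ELOA for PLAU, PPP5C for PLAUR (0.992) and ANKS6 for MMP1 (0.897). The libraries fall into 2 lines, so that 928 to 1352 genes had an r over 0.99 with MMP2, MMP7, MMP14, TIMP1 or TIMP2, and 946 with PLAU, against 3 with PLAUR and 0 with MMP1.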

How the data were processed

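Total RNA was prepared with the Illumina TruSeq kit and sequenced as single-end reads of 36 bp. The submitters' processing notes name TopHat2 2.0.0, Cufflinks 2.0.2 and hg19. The authors deposited FPKM values with 95% intervals for 75378 entries per library, computed in each library on its own, without read counts, and the use of strand is not given in the sources used here. RNA was taken after 16 hr per the labels' design text, whereas the study's methods give a later time.

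Of 35951 RefSeq mRNA entries, 97.7% matched a symbol in a RefSeq gene table, and their FPKM values were summed per symbol. Reads behind an FPKM value were derived from its interval (half-width of 2 SD) and depth from single-exon genes. Intervals and floors cover counting error only. limma 3.58.1 in R 4.3.3 was fitted to log2(FPKM + 0.1) of the 10503 genes with a mean of at least 1 FPKM. The prior variance was let to follow the mean level. Tests were two-sided on all 8 libraries, with Benjamini-Hochberg adjustment at 0.05. The terms were cell line and siRNA for the lines and each siRNA, and cell line and knockdown for both siRNAs together. The interaction and within-line differences came from groups of line by knockdown, in which siRNA1 and siRNA2 served as replicates. Fold changes are on the scale of log2(FPKM + 0.1), which understates the change of low genes. The siRNA comparisons share the NTC libraries, and the knockdown model was checked on simulated data. Other pseudocounts, filters, scalings, entries, variance models, pairings and left-out libraries were tried. Python 3.11.15 with pandas 2.3.3 and matplotlib 3.10.9 was used otherwise.

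The members and gene lists were chosen with earlier results of these data known. Named are the members, from each other list the 3 highest genes and the 3 with the largest difference among those called between the lines, every list gene called for knockdown, and the gene most like each member. SYN1, SYN3, PSMA8, PLG, SERPINB2, SERPINF2, TIMP4 and the marker genes were named besides, and PLGRKT, MMP10 and ADAM17, after their values were seen. A pair of genes from these lists is not reported here.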

Additional observations from a re-analysis of the deposited data

How the results depend on the processing

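All calls of single members between the lines (7 called, MMP1 not) stayed on their side of the threshold in 18 alternatives each, and 7 members were called in each left-out-library fit. The sizes for the low genes depend on the pseudocount, with log2 differences of 5.31 to 6.62 for MMP7, -5.10 to -3.20 for MMP2 and -5.19 to -4.57 for PLAU, and the MMP1 difference ranged from -0.16 to 0.12. No member was called for knockdown in any alternative of the limma fits. The MMP1 estimate ranged from -0.72 to -0.04 for siRNA1 and from -0.15 to 0.29 for siRNA2. Its values of -0.72 and 0.29 are those with the highest entry per symbol. No result reversed among called values. The permutation test for members under the filter was not run, since TIMP3, the only such gene, is listed at 0 in every library. Depth limits the values of MMP7 in 786-O and of MMP2 in A498.

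Counts over all genes moved more. Without a filter, 6708 genes were higher in A498. The siRNA1 count of 36 became 57 with a pseudocount of 1 FPKM, 1 without a filter, 3 with the highest entry per symbol and 8 without the variance trend. The siRNA2 count of 3 became 0 without a filter, 0 with the highest entry and 1 without the trend. The knockdown count was 3 in A498 alone. The interaction count of 1 became 0 with a pseudocount of 1 FPKM, 4 without a filter and 5 with the highest entry. With a pseudocount of 1 FPKM, the genes past the fold threshold in single siRNA libraries numbered 195 (siRNA1) and 299 (siRNA2) in A498 and 299 and 173 in 786-O, and 0 members passed with siRNA1 in A498. With 0.01 FPKM, 1 member (MMP7, -0.35) passed with siRNA2 in 786-O.

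With libraries left out, the counts ranged from 3 to 32 for siRNA1, 1 to 11 for siRNA2, 0 to 4 for knockdown and 1 to 6 for the interaction. The siRNA1 count was 3 without A498 NTC 2, 7 without 786-O NTC 2 and 6 without 786-O siRNA1. The siRNA2 count was 8 without A498 siRNA2, 11 without 786-O siRNA2, and 1 without A498 NTC 1, 786-O NTC 1, 786-O NTC 2 or 786-O siRNA1. The knockdown count was 4 without 786-O siRNA2. The interaction count was 2 without A498 NTC 1, A498 NTC 2 or A498 siRNA2, 4 without 786-O NTC 2 or 786-O siRNA2, 5 without 786-O siRNA1 and 6 without A498 siRNA1. With 1 NTC library left out, 465 to 675 genes (siRNA1) and 505 to 1142 genes (siRNA2) in A498 and 701 to 808 and 542 to 597 in 786-O were past the fold threshold, with 0 to 1 members for siRNA1 in A498 and siRNA2 in 786-O. The counts of 675 and 1142 are those without A498 NTC 2. The cause of these moves was not tested.

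Deviations of libraries with the same number correlated at 0.25 in A498 and -0.03 in 786-O. Between the lines they correlated at -0.26 for NTC and 0.17 for siRNA libraries. The numbers were therefore not taken to pair libraries. An unplanned alternative paired NTC libraries of opposite number between the lines. With a replicate block, siRNA1 had 3 and siRNA2 1 gene called, 675 genes were past the fold threshold with siRNA1 in A498, 1 member passed with siRNA2 in 786-O (MMP7, -0.41), and no other call on the members changed.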

Other observations

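Other intracellular and membrane proteases also differed between the lines. Of 12 cathepsins and cystatins, 9 were tested, with 8 higher in A498 and 1 in 786-O by limma's adjusted threshold. Among all tested genes, 41% were higher in A498 and 42.8% in 786-O, so most genes differed. The aspartic protease CTSD averaged 1867 FPKM in A498 and 448 FPKM in 786-O (log2 2.06), and CTSH and CTSS averaged 38.9 and 24.1 FPKM in A498 against 6.20 and 4.82 FPKM in 786-O (log2 2.63 and 2.30). The inhibitor CSTB averaged 581 and 359 FPKM (log2 0.70). CTSZ was the gene higher in 786-O, at 774 against 449 FPKM (log2 -0.79). CD68, also a lysosomal protein, was the leukocyte marker at 1 FPKM or more, and its part in the cathepsin levels was not tested.

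Of 16 ADAM and ADAMTS proteases, 10 were tested, with 5 higher in A498 and 4 in 786-O. Among all tested genes these shares were 41% and 42.8%. ADAMTS7 averaged 2.47 FPKM in A498 and 0.0160 FPKM in 786-O (log2 4.46), and ADAMTS12 averaged 2.87 and 0.109 FPKM (log2 3.84). ADAMTS9 averaged 0.944 FPKM in A498 and 5.41 FPKM in 786-O (log2 -2.40), and ADAMTS1 averaged 8.85 and 20.9 FPKM (log2 -1.23). ADAMTS7 and ADAMTS12 passed the filter only through A498, and ADAMTS9 only through 786-O. The 786-O mean of ADAMTS7 lies under the 0.1 FPKM added before the log, so the size of its difference depends on that value. ADAM15 was the highest, at 48.7 and 64.1 FPKM (log2 -0.40), followed by ADAM9 at 29.4 and 24.3 FPKM (log2 0.29). Of 7 cell surface serine proteases and their inhibitors, 2 were tested. SPINT2, an inhibitor of membrane serine proteases, averaged 3.66 FPKM in A498 and 82.5 FPKM in 786-O (log2 -4.46, adjusted p = 1.85e-11, limma), and the dipeptidyl peptidase DPP4 averaged 26.1 and 9.63 FPKM (log2 1.43). SPINT1 averaged 0.0835 FPKM in A498 and 1.54 FPKM in 786-O, with a mean under the filter.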
